A study of Mus musculus with 10 samples.

Results

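The genes described here are 41 genes of mitosis, with products in the mitotic spindle, the kinetochore, the spindle checkpoint and the machinery of cytokinesis. They were taken by name from the 35006 row names of the count files, all 41 were found, and all 41 passed the filter on low counts, which left 13706 genes for the tests. The counts come from 10 libraries of poly-A RNA, each from 10000 live EpCAM+ cells sorted from small intestinal crypts of C57BL6/J mice. All mice carried OSCAR, a fluorescent reporter of RNA polymerase II kinase activity in which mCherry is joined through P2A to VeN90, a Venus variant that loses fluorescence when it is phosphorylated. The transgene sits in Rosa26 behind an EF1a promoter, and its stop cassette was removed in the germline with Vasa-Cre, so no population lacked the reporter. The populations were OSCARlow EF1alow (P1), OSCARhigh EF1alow (P2), OSCARlow EF1ahigh (P3), OSCARmed EF1alow (P4) and OSCARmed EF1ahigh (P5), with 2 libraries each. Here OSCAR is the ratio of VeN90 to mCherry, and EF1a is the general expression of the transgene. The mice's age is not given in the sources used here. The study calls the 2 libraries of a population biological replicates, and the p-values measure only the spread between such libraries.

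Depth ranged from 3857612 to 6485823 counts on genes. Epithelial markers were present in all 10 libraries, with 3384 to 8085 CPM (counts relative to the scaled library total) summed over 5 genes. The libraries labelled P2 carried 38.6% and 28.2% of their counts on 8 Paneth cell markers, against 0.0757% to 5.97% in the other 8 libraries, and 3.87% and 8.86% on 8 goblet cell markers, against 0.0972% to 1.58%. The libraries labelled P3 carried 58.6% and 35.5% of their counts on mitochondrial genes, against 1.02% to 4.99% elsewhere. The study assigns secretory cell markers to P3, so the names P2 and P3 are used below only as the labels of libraries. Where a comparison below speaks of the OSCAR or EF1a gate of P2 or P3, the gate is that of the label and holds only if the label is right. All CPM are scaled by the trimmed mean of M-values (TMM) unless stated, and a gene is called where edgeR's quasi-likelihood test gave an adjusted p under 0.01.

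In a dividing cell, cyclin-dependent kinase 1 with its A and B cyclins drives entry into mitosis, and the Aurora and Polo-like kinases shape the spindle and its attachments. Kinetochores link centromeres to microtubules through the Ndc80 complex, and the spindle checkpoint holds back the anaphase-promoting complex until every chromosome is attached. Anillin, Ect2 and the central spindle then drive cytokinesis. Most of these genes are transcribed late in the cell cycle and are low in cells that have left it. In the crypt, dividing stem and progenitor cells lie next to Paneth cells and other differentiated cells that no longer divide.

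The 41 members followed nearly the same order over the populations. In 33 of the 41 the mean level fell in the order P5, P3, P4, P1, P2. The libraries labelled P2 had the lowest mean for 40 members, and Plk1 was the exception. P3 had the highest mean for Ccnb2, Cenpm, Spc25 and Cdca3. Neighbours in this order often overlapped, since the libraries of P5 and P3 overlapped for 33 members (59.5% of all genes tested did), those of P3 and P4 for 12 (53.4%) and those of P4 and P1 for 5 (22%). Between P1 and P2 no member overlapped, with both P2 libraries below both P1 libraries for 40 members, against 38.6% of all genes, and above them for Plk1. The place of P3 above P4 depended on the scaling. Without scaling factors, the members other than Plk1 summed to 970 and 2998 CPM in the P3 libraries and to 2012 and 2253 CPM in the P4 libraries.

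**Figure D1:**
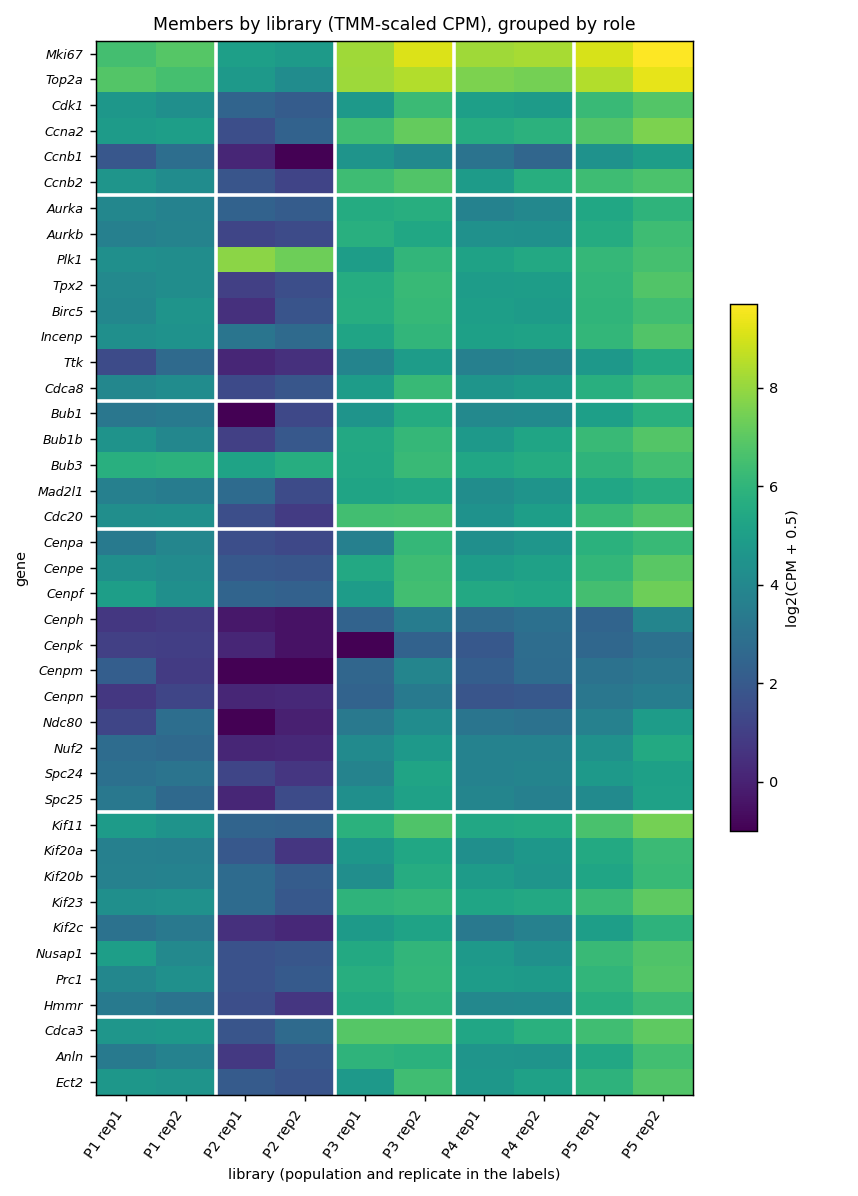
Level of each of the 41 members in each of the 10 libraries, as log2 of TMM-scaled CPM plus 0.5, with white lines between populations and between groups of genes by role. Mean CPM is lowest in P2 for 40 members, although for Bub3 and Cenpk a P3 library lies below a P2 library. Plk1 is brightest in P2, and the second P5 library is above the first for all 41 members.

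Mki67 encodes Ki-67, a protein that coats mitotic chromosomes and is used as a marker of cycling cells. It had 527 and 826 CPM in P5, 285 and 554 in P3, 287 and 310 in P4, 89.3 and 118 in P1, and 32.3 and 27.7 in P2. Top2a, the topoisomerase that untangles sister chromatids, had 352 and 628 CPM in P5, 276 and 355 in P3, 190 and 178 in P4, 113 and 92.3 in P1, and 26.5 and 18.1 in P2. For both genes the P5 libraries lay above the P4 libraries, and the P2 libraries lay below all others. Per kilobase of exon, Mki67 was the highest member in P5 with a mean of 67.2 CPM per kilobase, followed by Ccnb2 with 59.1 and Top2a with 54.0. The lowest members on this scale were Cenpk with 3.47, Cenph with 5.30 and Cenpn with 5.70, all of them kinetochore genes.

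Among the genes of the cyclin-dependent kinase module, Cdk1, the kinase of mitotic entry, had 74.8 and 114 CPM in P5, 27.1 and 77.5 in P3, 32.3 and 28.8 in P4, 24.6 and 19.4 in P1, and 4.88 and 3.79 in P2. Its P3 libraries were 1 below and 1 above the P4 pair. Ccnb1, its cyclin B1 partner, was far lower, with 21.1 and 30.5 CPM in P5, 22.8 and 16.4 in P3, 7.86 and 5.26 in P4, 3.22 and 6.69 in P1, and 0.610 and 0 in P2. Over 61.3% of the Ccnb1 transcript the same sequence stands elsewhere in the genome, at an identity of at least 98% over at least 75 bases. Reads with several alignments were not counted, so the level of Ccnb1 is uncertain. Of the other members, 6 shared between 0.916% and 17.8% of their transcript with another place, led by Spc24, and 34 shared none.

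The chromosomal passenger complex corrects faulty attachments and later acts at the midzone. Its kinase Aurkb had 47.2 and 82.6 CPM in P5, 52.6 and 40.4 in P3, 21.0 and 19.9 in P4, 12.2 and 13.4 in P1, and 1.83 and 2.23 in P2. Birc5, the survivin subunit of the complex, had 63.4 and 85.8 CPM in P5, 49.4 and 71.3 in P3, 31.3 and 28.7 in P4, 14.7 and 22.9 in P1, and 0.914 and 2.90 in P2. Both genes gave P3 and P5 libraries above those of P4, which in turn lay above P1.

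The spindle checkpoint genes were less uniform. Bub1b, which encodes the checkpoint protein BubR1, had 75.1 and 114 CPM in P5, 43.0 and 68.2 in P3, 27.3 and 38.0 in P4, 22 and 14.7 in P1, and 1.52 and 3.35 in P2. Mad2l1, the checkpoint protein that binds Cdc20, had 39.3 and 49.5 CPM in P5, 37.7 and 42.6 in P3, 18.2 and 22.7 in P4, 12 and 10.9 in P1, and 6.10 and 2.23 in P2. Cdc20, the activator that the checkpoint holds back, had 73.6 and 108 CPM in P5, 88.1 and 92.6 in P3, 21.3 and 31.7 in P4, 19.0 and 19.7 in P1, and 2.44 and 1.34 in P2. These 3 genes kept the common order, and the P3 libraries of Cdc20 lay within the range of the P5 libraries. Bub3 encodes the WD-repeat protein that brings the Bub kinases to kinetochores. It had 61.0 and 88.0 CPM in P5, 42.5 and 76.4 in P3, 40.2 and 47.0 in P4, 53.9 and 57.2 in P1, and 36.0 and 49.5 in P2. It was the flattest member, since its highest population mean was 1.74 times its lowest, against at least 10.2 times for every other member with a lowest mean above 0. Its P1 libraries lay above both P4 libraries, and its P2 and P4 libraries overlapped.

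At the centromere, Cenpa, the histone H3 variant that marks it, had 57.1 and 74.0 CPM in P5, 12.2 and 69.9 in P3, 19.4 and 23.9 in P4, 9.66 and 14.4 in P1, and 2.44 and 2.01 in P2. Cenpf, a large protein of the outer kinetochore, had 90.9 and 159 CPM in P5, 29.7 and 88.4 in P3, 42.8 and 39.8 in P4, 31.0 and 19.4 in P1, and 4.88 and 4.46 in P2. Ndc80, the microtubule-binding subunit, had 12.5 and 29.7 CPM in P5, 9.56 and 18.0 in P3, 8.35 and 7.64 in P4, 1.86 and 6.69 in P1, and 0 and 0.446 in P2. For Cenpa and Cenpf the 2 P3 libraries lay on either side of the P4 pair. The kinetochore group held most of the members at the limit of detection in P2, where 8 members had 3 counts or fewer in both libraries. These were Ccnb1, Cenph, Cenpk, Cenpm, Cenpn, Ndc80, Nuf2 and Kif2c. Cenpm had no count in either P2 library. Taking 3 counts per library as the floor, it was at least 3.41-fold lower there than in P1, 6.57-fold lower than in P4 and 10.5-fold lower than in P5.

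Among the motors, Kif11, the kinesin-5 that pushes spindle poles apart, had 96.9 and 174 CPM in P5, 55.7 and 106 in P3, 42.3 and 44.8 in P4, 28.8 and 21.7 in P1, and 4.88 and 4.68 in P2. Kif23, the motor of the centralspindlin complex, had 75.7 and 131 CPM in P5, 61.1 and 67.3 in P3, 38.5 and 43.8 in P4, 19.5 and 20.7 in P1, and 6.10 and 3.35 in P2. Kif20a, a kinesin of the central spindle, had 44.6 and 77.5 CPM in P5, 25 and 41.1 in P3, 19.3 and 24.5 in P4, 12 and 11.7 in P1, and 3.35 and 1.12 in P2. In all 3 motors each P5 library lay above every P4 library. Exons of Kif20a share 1259 of their 3893 bases with Cdc23 on the opposite strand, and counting ignored strand. Reads lying wholly within the shared bases would be ambiguous and counted for neither gene, so the level of Kif20a may be too low. Cdc23 had 11.9 to 37.7 CPM over the 10 libraries and did not follow the order of the motors, with 25.8 and 25.6 CPM in P4 and 31.1 and 23.4 in P2. Shorter overlaps touch Ccna2 with Exosc9 over 512 bases, Cdca8 with 9930104L06Rik over 232 bases, Nusap1 with Oip5 over 172 bases and Cdc20 with Elovl1 over 53 bases.

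For cytokinesis, Anln, the scaffold of the contractile ring, had 42.4 and 86.6 CPM in P5, 61.1 and 56.2 in P3, 23.6 and 22.7 in P4, 10.2 and 12.9 in P1, and 1.22 and 3.35 in P2. Ect2, the exchange factor that activates RhoA at the midzone, had 59.4 and 110 CPM in P5, 26.0 and 83.7 in P3, 24.4 and 33.8 in P4, 25.1 and 22.8 in P1, and 3.66 and 2.90 in P2. The libraries of Ect2 overlapped between P1 and P4, and those of Anln did not.

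In P5 and P3 the members also moved together between the 2 libraries of the population. The second P5 library was above the first for 41 of 41 members (51.9% of all genes), by a median of 0.69 on the log2 scale. The median over all genes tested was 0.02. In P3 the second library was above the first for 38 members (48.1% of all genes), by a median of 0.77. There was no such common shift in P1, P2 and P4. In these the second library was above the first for 23, 17 and 28 members, against 49.8%, 57.2% and 53.0% of all genes. Over the 10 libraries the correlation of each member with the mean z-score of all 41 members, itself included, had a median r of 0.977. It was at least 0.94 for 38 members and lower for Bub3 (r = 0.67), Cenpk (r = 0.65) and Plk1 (r = -0.36). These values describe 10 libraries that share their depth and scaling. Outside every list of genes fixed for this report, the genes with a pattern most like the members' mean over the 10 libraries were D2Ertd750e (r = 0.992), Esco2 (r = 0.991), Tacc3 (r = 0.989), Asf1b (r = 0.985) and Ercc6l (r = 0.983). They were followed by Tuba1b, Lmnb1, E2f8, Cdkn2c and BC030867, down to an r of 0.975.

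Many late cell cycle promoters carry the cell cycle genes homology region (CHR), spelled TTTGAA or, as a variant, TTCGAA, often with CCAAT boxes upstream. These letters were searched on both strands in RefSeq windows (GRCm38.p6) of 250 bases before to 50 bases after the start site. Of the 41 members 35 had a window. TTTGAA stood in 25 of the 35 members (71.4%), against 20.2% of the 27025 genes with a window and 14.4% of the 9080 genes with a window among those tested. TTCGAA stood in 4 members (11.4%), against 1.8% of the genes with a window. CCAAT stood in 27 members (77.1%), against 41.1%, and TTTGAA and CCAAT together in 21 members (60.0%), against 7.97%. None of these letters stood in the windows of Birc5, Mad2l1, Nuf2 and Nusap1, which says nothing of sites outside them. The 120 bases before the start site are shown for 5 members of the common order and for Bub3, the flattest member, with each TTTGAA or CCAAT in capitals. On the other strand these read TTCAAA and ATTGG.
Mki67, chr7:135716380-135716499, minus strand: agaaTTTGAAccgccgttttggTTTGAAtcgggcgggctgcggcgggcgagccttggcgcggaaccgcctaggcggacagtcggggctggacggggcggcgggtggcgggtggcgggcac
Cdk1, chr10:69352913-69353032, minus strand: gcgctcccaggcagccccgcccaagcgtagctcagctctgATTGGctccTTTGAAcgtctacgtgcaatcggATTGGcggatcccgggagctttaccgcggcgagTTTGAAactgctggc
Cdc20, chr4:118437344-118437463, minus strand: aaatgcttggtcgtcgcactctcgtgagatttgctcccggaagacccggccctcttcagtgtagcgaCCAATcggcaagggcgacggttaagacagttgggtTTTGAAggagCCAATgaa
Kif11, chr19:37376262-37376381, plus strand: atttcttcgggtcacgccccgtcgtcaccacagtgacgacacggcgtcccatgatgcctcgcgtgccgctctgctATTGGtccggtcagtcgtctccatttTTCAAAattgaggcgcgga
Prc1, chr7:80294356-80294475, plus strand: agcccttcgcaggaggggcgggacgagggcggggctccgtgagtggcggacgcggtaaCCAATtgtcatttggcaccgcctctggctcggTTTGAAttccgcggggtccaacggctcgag
Bub3, chr7:131560250-131560369, plus strand: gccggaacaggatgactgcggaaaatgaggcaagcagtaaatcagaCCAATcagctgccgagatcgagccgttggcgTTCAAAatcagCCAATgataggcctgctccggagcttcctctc
All 6 stretches hold TTTGAA on 1 strand or the other, and Bub3, which did not follow the common order, holds it too. The 6 were picked as examples, so this is no measure of how often TTTGAA lies before the start site. In Aurka, Plk1 and Cenpa it stood only after the start site, from bases 33, 31 and 17.

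P5 and P4 have the same medium OSCAR ratio and differ in EF1a, so their comparison asks what goes with higher general expression of the transgene. All 41 members had a higher fitted level in P5 (40 without the first P4 library, where Cenpk was below 0, and 40 without the second P5 library, where Cenph was), with a median log2 fold change of 1.47 (2.77-fold), against a median of 0.01 over all genes tested. No member was called by edgeR's quasi-likelihood test, in which no gene of the 13706 was called (0.0%), and the lowest adjusted p of a member was 0.231. At an unadjusted p under 0.05, 36 members passed, against 2.55% of all genes, DESeq2 called 7 members, against 0.148% of the genes to which it gave an adjusted p, and edgeR without the filter on low counts called 27, against 0.882% of all genes. Both P5 libraries lay above both P4 libraries for 39 members, against 16.0% of all genes, and Cenph and Cenpk overlapped. In bulk RNA a larger share of dividing cells and more of these transcripts per dividing cell cannot be told apart.

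The differences between P5 and P4 were of similar size in every role. Medians were 1.45 for the cyclin-dependent kinase module, 1.42 for the mitotic kinases, 1.42 for the checkpoint, 1.34 for the kinetochore, 1.64 for the motors and microtubule proteins, and 1.48 for cytokinesis. The highest values belonged to Kif2c, a microtubule-depolymerizing kinesin (2.05 ± 0.35, SE), Hmmr, a spindle-assembly factor (2.0 ± 0.31), and Ccnb1 (1.98 ± 0.50). The lowest belonged to the kinetochore genes Cenpk (0.39 ± 0.82), Cenph (0.51 ± 0.55) and Cenpm (0.67 ± 0.62), each with an SE close to or above the value. Aurka, the kinase of spindle poles, had the lowest unadjusted p of the members, with 40.9 and 62.0 CPM in P5 against 12.8 and 15.4 in P4 (log2 fold change 1.87 ± 0.26, adjusted p = 0.231).

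The other gene lists separate mitosis from S phase in this comparison. Of 76 other mitotic genes measured, 75 had a higher fitted level in P5, with a median of 1.22, and 47 had an unadjusted p under 0.05. The highest were Fam64a (2.88 ± 1.14), Troap (2.34 ± 0.47) and Aspm (2.27 ± 0.31), the last a spindle-pole protein. Of 40 S phase genes, which make and copy DNA, 17 were higher and 23 lower in P5, the median was -0.04 and none had an unadjusted p under 0.05. The values farthest from 0 belonged to Ccne2 (-0.79 ± 0.90) and Ccne1 (-0.54 ± 0.70), the E-type cyclins, and to Mcm10 (0.54 ± 0.33), a replication initiation factor. The DREAM and MMB complexes repress or activate late cell cycle genes. For 14 genes that form these complexes or act with them, the median was 0.19. The highest values were those of Foxm1 (1.30 ± 0.33), Lin54 (0.88 ± 0.36) and Lin37 (0.30 ± 0.46). Of 22 genes of the anaphase-promoting complex and cohesin or of their cofactors, the median was 0.09. Fzr1 (0.90 ± 0.24), Rad21 (0.70 ± 0.26) and Cdc27 (0.53 ± 0.33) were highest. Of the genes in these 4 lists edgeR called none, and DESeq2 called 4 of the other mitotic genes and none of the rest.

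**Figure D2:**
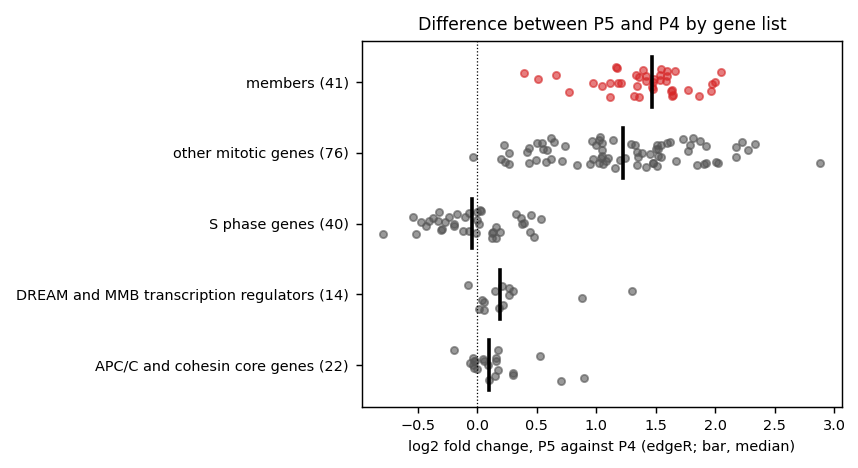
Log2 fold change of P5 against P4 from edgeR for the 41 members and for 4 other gene lists, 1 point per gene with its number of genes in brackets and a bar at each median. The members (median 1.47) and the other mitotic genes (median 1.22) lie to the right of 0, whereas the S phase genes (median -0.04) lie on both sides.

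Setting the members against the S phase genes within a library does not depend on the scaling. The summed level of the members other than Plk1, divided by that of the 40 S phase genes, was 2.01 and 2.31 in P5 and 2.1 and 1.5 in P3. It was 0.834 and 0.732 in P4, 0.960 and 0.975 in P1, and 0.336 and 0.356 in P2. The P5 and P3 libraries all lay above the others, and both P2 libraries lay below the rest. By the labels these 4 are the libraries with high EF1a, whereas with the labels P2 and P3 exchanged the libraries with high EF1a would hold the 2 lowest ratios. Among P5, P4 and P1 alone, both P5 libraries were above the rest. The ratio also put P1 above P4, the reverse of the order of the summed levels, which were 779 and 776 CPM in P1 and 1336 and 1450 CPM in P4. The summed S phase level was 811 and 796 CPM in P1 and 1602 and 1980 CPM in P4. In P3 the 2 libraries differed, with 946 and 2088 CPM of S phase genes and 1987 and 3128 CPM of members.

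**Figure D3:**
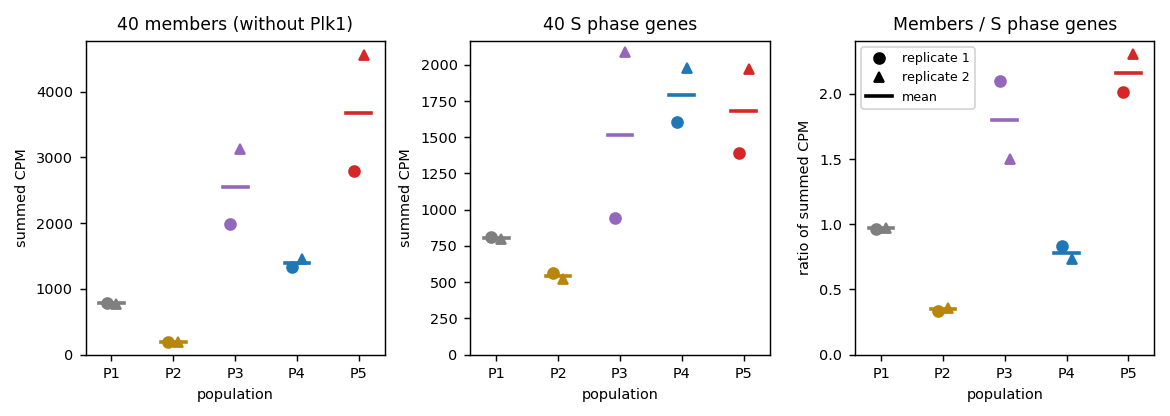
Summed TMM-scaled CPM of 40 members (all but Plk1), summed CPM of 40 S phase genes, and their ratio, by population, with circles for replicate 1, triangles for replicate 2 and bars for the mean. The ratio is 1.5 to 2.31 in P3 and P5 and 0.336 to 0.975 in the others.

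By their labels, P3 and P1 have a low OSCAR ratio and differ in EF1a. All 41 members had a higher fitted level in P3 under TMM, and 40 had it without scaling factors, where Bub3 changed sign. The median log2 fold change was 1.81, and 20 members were called higher, against 8.01% of all genes. Of the 20, 4 were in the cyclin-dependent kinase module, 5 among the kinases, 2 in the checkpoint, 2 in the kinetochore, 5 among the motors and microtubule proteins and 2 in cytokinesis. By fold the first were Cenph (2.65 ± 0.66, not called), Hmmr (2.56 ± 0.33, adjusted p = 0.00160) and Ttk, a checkpoint kinase (2.42 ± 0.53, adjusted p = 0.00910). The last were Bub3 (0.12 ± 0.30), Cenpk (0.84 ± 0.97) and Nusap1, a microtubule-bundling protein (1.21 ± 0.35), and none of these 3 was called. Of the other lists, 16 of 76 other mitotic genes and 7 of 40 S phase genes were called higher, with medians of 1.51 and 1.45. The 14 DREAM and MMB regulators had a median of 0.03, with 1 called higher and 1 lower, and the 22 genes of the anaphase-promoting complex and cohesin had a median of 0.15, with 1 called higher. The P3 libraries had the mitochondrial shares given above, and 12 leukocyte markers summed to 311 and 1016 CPM in P1 and to 25.8 and 171 CPM in P3, with Cd2 at 0 in both P3 libraries. The part of either in the difference was not tested. The call rested on few libraries, and the share of all genes called in the fits that follow is not given. No member was called without the first or without the second P1 library, in a fit to the 4 libraries alone, or without scaling factors, and 7 were called without the second P3 library.

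Whether P5 against P4 differed from P3 against P1, by the labels the EF1a difference at medium and at low OSCAR, was tested as an interaction. No member was called, by edgeR or by DESeq2, where edgeR called 0.81% of all genes and DESeq2 17.8% of those to which it gave an adjusted p. For 3 members the unadjusted p was under 0.05, against 34.0% of all genes, and the median difference was -0.32 on the log2 scale. The values farthest from 0 were those of Cenph (-2.13 ± 0.86), Cenpm (-1.23 ± 0.91) and Ccnb2 (-1.07 ± 0.44) on one side, and of Nusap1 (0.76 ± 0.48), Bub3 (0.66 ± 0.43) and Cdk1 (0.35 ± 0.58) on the other. Without the second P3 library the median was 0.04. For the 40 S phase genes the median difference was -1.44 and 18 had an unadjusted p under 0.05, though edgeR called none. DESeq2 called 6 of them.

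P1 and P4 differ in OSCAR at low EF1a. The fitted level was lower in P1 for 39 members, with a median log2 fold change of -0.83, and Bub3 (0.35 ± 0.30) and Nusap1 (0.02 ± 0.34) had the opposite sign, which without scaling factors they lost. Mki67 alone was called (-1.53 ± 0.36, adjusted p = 0.00880), which is 1 of 41, against 9.44% of all genes called lower. Cenph (-2.38 ± 0.64), Cenpk (-1.70 ± 0.91) and Ttk (-1.61 ± 0.52) had the lowest fitted values and were not called. Aurka had almost the same level, with 14.7 and 12.9 CPM in P1 against 12.8 and 15.4 in P4 (-0.03 ± 0.27). In contrast, 13 of 40 S phase genes were called lower in P1, with a median of -1.50. The pocket protein Rbl2, a repressive subunit of the DREAM complex, was called higher in P1 (1.63 ± 0.21, adjusted p = 0.00115), at 110 and 111 CPM against 30.8 and 40.8. Lin54 and Dyrk1a of the DREAM list and Fzr1 and Wapal of the list of the anaphase-promoting complex and cohesin were called higher too, with values between 1.05 and 1.60. With Rbl2 these are 3 of 14 and 2 of 22 genes, and the share of all genes called higher in P1 is not given. Called lower in P1 were Tfdp1 of the DREAM list (-1.08 ± 0.21), and Cdc16 (-1.26 ± 0.23) and Pds5b (-1.01 ± 0.24) of the other list. The median was -0.02 for each of these lists. Leukocyte markers summed to at most 18.2 CPM in P4, against the 311 and 1016 CPM of P1, and their part was not tested.

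P1 against P5 and the pair P3 against P4 and P5 complete the comparisons among the 8 libraries not labelled P2. Between P1 and P5, 33 members were called lower in P1, against 8.59% of all genes, with a median log2 fold change of -2.29. Both P1 libraries lay below both P5 libraries for all 41 members, against 38.7% of all genes. The largest falls were those of Ttk (-3.08 ± 0.53), Cenph (-2.89 ± 0.65) and Hmmr (-2.85 ± 0.33), and the smallest values those of Bub3 (-0.42 ± 0.30), Cenpm (-1.61 ± 0.66) and Spc25 (-1.78 ± 0.49), none of the last 3 called. This count fell without any single library of P1 or P5, where 1 population is left with 1 library. The share of all genes called in those fits is not given. With each library left out, the median ranged from -2.63 to -1.87.

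Between P3 and P4 no member was called by edgeR (0.0% of all genes), 21 had an unadjusted p under 0.05 (15.2% of all genes did), and DESeq2 called 3, against 0.891% of the genes to which it gave an adjusted p. The median was 0.97, with 40 members higher in P3 under TMM and 23 of 41 without scaling factors. Aurka (1.81 ± 0.27), Cdc20 (1.77 ± 0.28) and Hmmr (1.71 ± 0.31) had the highest values, and Cenpk (-0.85 ± 0.90), Cenph (0.27 ± 0.58) and Plk1 (0.32 ± 0.34) the lowest. Between P3 and P5 no member was called by edgeR (0.0% of all genes) or by DESeq2, and 3 had an unadjusted p under 0.05 in edgeR, as had 11.6% of all genes. The median was -0.52, the lowest values were those of Cenpk (-1.25 ± 0.90), Cenpf (-1.05 ± 0.45) and Kif20a (-0.87 ± 0.40), and Cenpm (0.29 ± 0.63), Cdca3 (0.11 ± 0.29), Ccnb2 (0.09 ± 0.31) and Spc25 (0.07 ± 0.47) were higher in P3 under TMM and not without scaling factors.

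The libraries labelled P2 had the lowest level of nearly all members. Against P4, which by the labels shares the low EF1a gate, 36 members were called lower, against 6.31% of all genes, with a median log2 fold change of -3.29. Against P1 29 were called lower (15.2% of all genes), against P3 38 (10.6%) and against P5 38 (7.14%), with medians of -2.43, -4.26 and -4.82. These 4 comparisons share the P2 libraries. With Cenpm, which had no count in P2, set to its lower bound, the medians were -3.27, -2.40, -4.21 and -4.81 in the same order. The fitted values lowest in each comparison belonged to Cenpm, Ndc80, Ccnb1 and Cenph, whose P2 counts of 0 to 2 give no usable fold. Among members with more counts, Ccnb2 fell by 4.10 ± 0.41 on the log2 scale against P4 and Cdc20 fell by 3.84 ± 0.37, both called. Aurka had the smallest of the called falls against P4 (-1.76 ± 0.30, adjusted p = 0.00328).

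Not called against P4 were Bub3, Cenpa, Cenpk and Cenpn. Bub3 also had the value closest to 0 against each of the other populations, with -0.37 ± 0.30 against P1, -0.49 ± 0.31 against P3 and -0.80 ± 0.30 against P5, none called. Against P4 its value was -0.03 ± 0.30, and the sign changed with DESeq2 size factors. Of the other lists against P4, 41 of 76 other mitotic genes and 26 of 40 S phase genes were called lower in P2, with medians of -2.86 and -2.66. Of the 14 DREAM and MMB regulators 2 were called lower, with a median of -0.46. None of the 22 genes of the anaphase-promoting complex and cohesin list was called by edgeR or DESeq2. Their median was -0.14, and in edgeR 5 had an unadjusted p under 0.05 (40.6% of all genes). Rfc1, a subunit of the clamp loader, was the S phase gene that went the other way, with 269 and 231 CPM in P2 against 63.9 and 68.8 in P4 (1.92 ± 0.40, adjusted p = 0.00739). The Paneth and goblet markers of P2 given above move with these differences, and their part was not tested. The number of members called against P4, 37 with Plk1, fell without any single library of P2 or P4. The share of all genes called in those fits is not given. With each library left out, the median ranged from -3.40 to -3.20.

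Plk1, the Polo-like kinase of spindle assembly and mitotic exit, stood apart from the other 40. It had 69.9 and 92.4 CPM in P5, 30.8 and 65.3 in P3, 35.3 and 43.0 in P4, 19.8 and 18.6 in P1, and 229 and 161 in P2. Outside P2 it kept the common order. In P2 both libraries exceeded all others, and it was called higher there against P4 (2.32 ± 0.34, adjusted p = 0.00171), P1 (3.34 ± 0.36, adjusted p = 0.000323) and P3 (1.99 ± 0.34, adjusted p = 0.00224), and not against P5 (1.26 ± 0.33, adjusted p = 0.0188). For a call of higher in P2 the share of all genes was 8.0% against P4, 13.9% against P1 and 10.4% against P3. DESeq2 called Plk1 higher in P2 against P5 as well. Without scaling factors Plk1 kept its sign against P4 and was not called. In mm9, Plk1 lies on chromosome 7 at 129302951 to 129313389 on the plus strand, and Ern2, an endoplasmic reticulum stress sensor of mucus-secreting cells, lies on the opposite strand with its 3′ end 18 bases beyond that of Plk1. Ern2 had 508 and 371 CPM in P2 and between 10.1 and 53.8 CPM in the other libraries. Since reads were counted without regard to strand, transcripts of Ern2 that run into Plk1 would be counted for Plk1. Both genes were highest in P2. Ern2 had 53.8 and 36.2 CPM in P4 and 45.5 and 25.7 CPM in P5, where Plk1 was higher than in P4, and the part of Ern2 in the Plk1 counts was not tested.

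**Figure D4:**
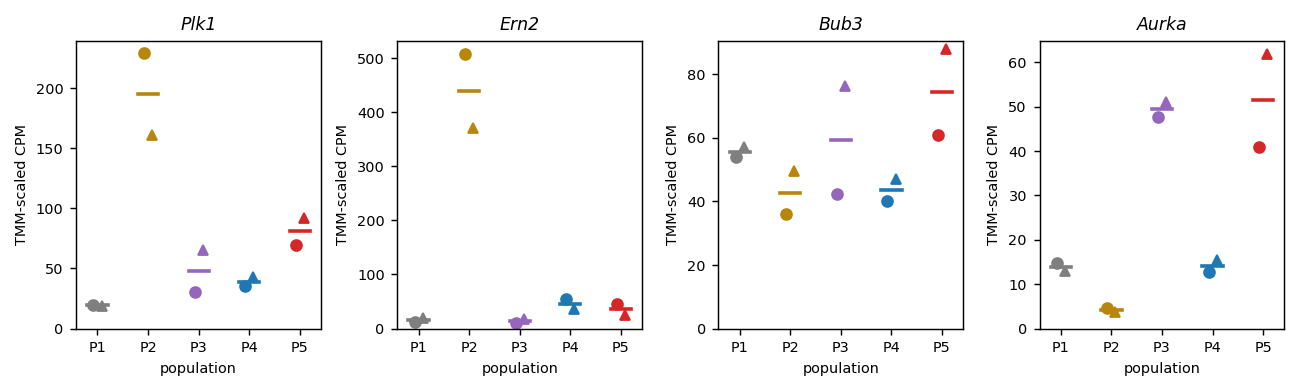
TMM-scaled CPM of Plk1, of its neighbour Ern2, and of the members Bub3 and Aurka by population, with circles for replicate 1, triangles for replicate 2 and bars for the mean. Plk1 and Ern2 are highest in P2 (229 and 161 CPM, 508 and 371 CPM), Bub3 spans 36.0 to 88.0 CPM over all libraries, and Aurka is 3.79 to 62.0 CPM with P3 and P5 above the rest.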

How the data were processed

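RNA-seq of 10 libraries was analysed, 2 for each of the populations P1 to P5, grouped by their titles. The deposited values are raw counts of reads per gene. The authors checked reads with FastQC 0.11.5, mapped them to mm9 with TopHat2 2.1.0 and Bowtie, and counted them on exons with HTSeq 0.11.2 without regard to strand. Row names that the GENCODE vM1 annotation gives as rRNA (206) were removed here, as in the study's methods, where DESeq2 was used. Genes were filtered with filterByExpr (13706 kept), scaled by TMM and fitted with 5 population means over the 10 libraries with edgeR 4.0.16 in R 4.3.3 (limma 3.58.1). Each contrast was a quasi-likelihood F-test in edgeR, its p-values adjusted by Benjamini-Hochberg over the whole table, with calls at an adjusted p under 0.01. SEs were computed from F. An exact test of 2 against 2 libraries cannot pass 0.05.

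Depth was 3857612 to 6485823 counts per library, so that 3 counts, the floor used, are 0.463 to 0.778 CPM before scaling, which covers counting error only. Promoter windows were matched by symbol, and copies of transcripts were searched with blastn 2.17.0. Tables and figures used Python 3.11.15, pandas 2.3.3, numpy 2.4.6 and matplotlib 3.10.9. The procedure was tested on simulated data. All members may be named. Per-library levels were given for a fixed selection in each role, and for each contrast the 3 highest and lowest members. A gene selected from the other lists and a marker gene are not reported here. The members and lists were chosen with earlier results of these data known. Alternatives covered DESeq2 1.42.0, its size factors, the filter, the threshold, rRNA and mitochondrial genes, the replicate block, the libraries fitted and each library left out. Fits without scaling factors and without both P3 libraries were added after seeing the data.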

Additional observations from a re-analysis of the deposited data

How the results depend on the processing

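The signs of the members' medians in the 10 comparisons were the same under every alternative run. For most counts in this section, the share of all genes called in the same setting is not given. Such counts do not set the members apart from other genes. Among counts of members called, dropping the filter on low counts gave 27 for P5 against P4 (0.882% of all genes). It gave 38 for P3 against P1, 11 for P1 against P4, 7 for P3 against P4 and 1 for P3 against P5. The Wald test of DESeq2 gave 7, 2 and 3 for P5, P1 and P3 against P4. At an adjusted p under 0.05, 35 were called for P3 against P1 and 7 for P1 against P4. Fitting only the libraries compared gave 0 for P3 against P1 and 4 for P1 against P4. For P1 against P4, DESeq2 size factors gave 0 and leaving out both P3 libraries gave 2. Without scaling factors, 0 were called for P3 against P1 and for P1 against P4. That setting moved the median of all genes by between -1.07 and -0.08 in the comparisons of 2 populations, and the members' medians to -1.53 for P1 against P4, -4.42 for P2 against P4, 0.038 for P3 against P4, -2.90 for P1 against P5, -5.86 for P2 against P5, -1.43 for P3 against P5 and -2.87 for P2 against P1. Other moved medians were -1.03 for P1 against P4 and -2.29 for P2 against P1 without mitochondrial genes, -3.38 for P2 against P4 without the filter, and -3.37 for P2 against P4 and -2.36 for P2 against P1 with only the libraries compared. The causes of these shifts were not tested.

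Leaving out each library in turn gave 0 to 32 calls for P3 against P1, 0 to 3 for P1 against P4, 16 to 40 for P2 against P4, 0 to 36 for P1 against P5, 31 to 40 for P2 against P5, 14 to 32 for P2 against P1 and 29 to 39 for P2 against P3, and 0 for P5 against P4, P3 against P4, P3 against P5 and the interaction. For P3 against P1 the count was 0 without either P1 library, 7 without the second P3 library and 32 without the first. For P2 against P1 it was 17 and 20 without the first and second P1 library, and 16 and 14 without the first and second P2 library. Medians ranged from 1.03 to 1.80 for P5 against P4, 1.42 to 2.08 for P3 against P1, -0.89 to -0.74 for P1 against P4, -3.40 to -3.20 for P2 against P4, 0.42 to 1.25 for P3 against P4, -2.63 to -1.87 for P1 against P5, -5.20 to -4.36 for P2 against P5, -0.95 to -0.10 for P3 against P5, -2.65 to -2.43 for P2 against P1 and -4.66 to -3.75 for P2 against P3. The 19 members with levels given by library were followed singly in 6 comparisons (P5 and P2 against P4, P3 and P2 against P1, P1 and P2 against P5), and of these only Bub3 changed sign. Other members also changed sign under some alternatives, such as Cenpk and Cenph for P5 against P4. For P2 against P4 its value was 0.0034 with DESeq2 size factors and 0.00092 with the Wald test, and -0.30 to 0.15 with a library left out, above 0 without the first P2 (0.15) or the second P4 library (0.08). For P3 against P1 it was -0.15 without scaling factors and -0.36 to 0.47 with a library left out, below 0 without the second P3 library.

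The labels do not say what a replicate number marks. The main tests did not take the numbers as pairs, so an effect shared by libraries of the same number is not removed from them. Deviations of libraries with the same number correlated between -0.0598 (P2 and P3) and 0.554 (P4 and P5) over 10 pairs of populations. The median was 0.255, and 9 were above 0.1. Whether a replicate number marks a shared mouse or batch was not tested. With the replicate number as a block, 0 members were called for P5 against P4, 25 for P3 against P1, 3 for P1 against P4, 38 for P2 against P4 and 37 for P1 against P5. Low counts limit the values in P2, where 14 members had fewer than 10 counts in both libraries.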
